A study of Mus musculus with 4 samples.

Results

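Ybx1, Zfp106 and Ccng1 are 3 of the 1000 genes listed for tibialis anterior muscle, a muscle of the lower leg, of Dmd Dup2 mice. They were chosen by a measured value, a large fall of ribosome footprints relative to mRNA in treated muscle, so the treated to untreated values of footprints, mRNA and their ratio describe how they were chosen and support nothing. Treated muscle came from Dmd Dup2 mice given scAAV9.U7-ACCA, an AAV9 vector whose modified U7 small nuclear RNA makes the splicing machinery skip an exon. Untreated muscle came from Dmd Dup2 mice without the vector, so the libraries of both groups carry the dystrophin duplication and no wild-type muscle was analysed here. The 4 groups were treated mRNA, untreated mRNA, treated footprints and untreated footprints, with 1 library each. The number of animals behind a library, their age, sex and strain background, the dose and the time after injection are not given in the labels.

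A ribosome footprint is the stretch of mRNA that a translating ribosome shields from nuclease, so footprints over mRNA describe how many ribosomes a gene's transcripts carry. RNA-seq reads fall along the whole transcript and footprints mostly along the coding part. The 3 genes have different roles. Ybx1 encodes YB-1, a cold-shock domain protein that packages mRNA into particles and is known to hold back or stabilise the messages it coats. Its name comes from the Y box, a promoter element that holds an inverted CCAAT box. Zfp106 encodes a zinc finger protein that binds RNA, and mice that lack it develop a neuromuscular disease with loss of motor function. Ccng1 encodes cyclin G1, a target gene of p53 that recruits protein phosphatase 2A (PP2A).

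The 250 bases before the RefSeq start site of each gene are shown as a description, and a link to the mRNA values was not tested. Sequences are from RefSeq on GRCm38.p6, 5′ to 3′, and capitals mark CCAAT or its reverse complement ATTGG. All 3 genes lie on the minus strand, Ybx1 at chr4:119294514-119294763, Zfp106 at chr2:120563860-120564109 and Ccng1 at chr11:40755287-40755536.
Ybx1: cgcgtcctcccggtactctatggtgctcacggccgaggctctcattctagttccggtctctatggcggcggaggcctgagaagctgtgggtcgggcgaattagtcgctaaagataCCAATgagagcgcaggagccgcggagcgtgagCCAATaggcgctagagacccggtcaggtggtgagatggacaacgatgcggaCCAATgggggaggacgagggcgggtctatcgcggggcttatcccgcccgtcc
Zfp106: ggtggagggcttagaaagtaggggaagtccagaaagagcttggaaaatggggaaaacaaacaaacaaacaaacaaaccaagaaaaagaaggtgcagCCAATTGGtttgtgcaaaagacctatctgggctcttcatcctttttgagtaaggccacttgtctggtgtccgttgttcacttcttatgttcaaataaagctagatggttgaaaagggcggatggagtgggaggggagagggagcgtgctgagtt
Ccng1: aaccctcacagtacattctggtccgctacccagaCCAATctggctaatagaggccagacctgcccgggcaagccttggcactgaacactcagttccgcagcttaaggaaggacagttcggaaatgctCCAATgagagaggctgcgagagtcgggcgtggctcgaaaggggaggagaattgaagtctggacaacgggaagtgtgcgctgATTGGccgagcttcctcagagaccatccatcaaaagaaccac

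Each of the 3 windows held at least 2 matches to CCAAT, counted on both strands. Ybx1 had 3 matches, which start 135, 103 and 52 bases before the start site, all as CCAAT on the gene's strand. Ccng1 also had 3, at 216 and 123 bases as CCAAT and at 42 bases as ATTGG. Zfp106 had 2 that overlap in the palindrome CCAATTGG, 154 and 151 bases upstream. Of 32851 mouse promoter windows of the same length, 33.8% held at least 1 match and 10.1% at least 2. Among the windows of listed genes, found for 80.9% of them by RefSeq identifier, 38.0% held at least 1 and 16.4% at least 2. The last match in Ccng1 is part of CTGATTGG, the Y box core, which 3.83% of all windows hold on either strand and which does not occur in the other 2 windows. A GC box, GGGCGG on either strand, had 2 matches in Ybx1 and 1 in Zfp106, against 32.7% of all windows with at least 1, and TATAAA and CACGTG occur in none of the 3 windows. The windows of Ybx1 and Ccng1, at 62.8% and 55.2% G and C, lay above the 52.4% of the median promoter window, and that of Zfp106 at 45.6% lay below it. The motifs were chosen after the sequences were seen, and a match is a run of letters, not a shown binding site.

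The listed genes summed to 4248818 reads in treated mRNA, 125236 in untreated mRNA, 1664122 in treated footprints and 3349015 in untreated footprints. The untreated mRNA library was the shallowest, with a median of 25 reads a gene. The fibre markers of the labelled tissue were present, with 10 of 11 listed and 50.3% and 41.5% of treated mRNA and footprint reads, against 39.7% and 36.7% of untreated ones. Macrophage markers, of which 5 of 14 are listed, took 0.0197% and 0.0636% of treated mRNA and footprint reads and 0.137% and 0.144% of untreated ones. Fibroblast markers, of which 7 of 9 are listed, took 0.298% and 0.603% of treated mRNA and footprint reads and 2.13% and 2.86% of untreated ones. The table lists Acta2 alone of 8 endothelial and smooth muscle markers, at 0.0216% and 0.249% of treated mRNA and footprint reads and 0.0551% and 0.339% of untreated ones, although actin genes can share reads. It lists Fabp4 alone of 5 adipocyte markers, at 0.00899% and 0.0179% of treated and 0.0120% and 0.00424% of untreated mRNA and footprint reads, and none of the red blood cell, satellite cell or Schwann cell markers. The part of these shifts in the values of the 3 genes was not tested, and in bulk muscle fewer cells of a type and less RNA per cell cannot be told apart.

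All 3 genes had more mRNA in the treated library. Levels below are counts scaled to CPM with TMM, a scaling that lines up the bulk of the genes between libraries. These CPM levels are not divided by transcript length and are compared only within a gene, unlike the footprints per mRNA further below. The bracketed range is an exact 95% interval for counting error alone. Without molecular identifiers PCR copies of a read cannot be told from new molecules, so the interval may be too narrow. A ratio counted as higher or lower if it reached 1.5-fold with an interval that excluded 1 and the pair of libraries held at least 50 reads. With 1 library a group no test between conditions could be made, and a call compares libraries, not conditions. By such calls the listed fibroblast markers were 1 higher and 4 lower in mRNA, and 0 higher and 6 lower in footprints. The listed fibre markers were 4 higher and 0 lower in mRNA, and 3 higher and 2 lower in footprints. Their summed shares thus do not speak for each marker. Over all genes 31.8% were higher and 24.8% lower in mRNA, and 19.9% higher and 26.2% lower in footprints.

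Ybx1 (NM_011732) had 2941 reads in treated mRNA and 23 in untreated mRNA, or 871 (839 to 903) and 147 (93.1 to 220) scaled CPM. Its treated level was 5.93-fold higher (3.95 to 9.37). Zfp106 (NM_011743), with the most mRNA reads of the 3, had 8471 treated and 70 untreated, or 2508 (2455 to 2562) and 447 (348 to 564) scaled CPM, a 5.61-fold higher level (4.44 to 7.21). The treated and untreated intervals of both genes lay far apart. Ccng1 (NM_009831) had 2667 treated and 18 untreated reads, or 790 (760 to 820) and 115 (68.1 to 182) scaled CPM, a 6.87-fold higher level (4.34 to 11.6). All 3 were called higher, as were 31.8% of the 996 genes with enough reads, and they stood at places 9 for Ccng1, 13 for Ybx1 and 17 for Zfp106 from the highest ratio. Their untreated counts place Zfp106 among the deeper listed genes, at rank 164 of 1000, and Ybx1 and Ccng1 at ranks 531 and 737. No gene with fewer than 14 untreated mRNA reads is listed, so all places and shares given here hold among the listed genes only.

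Footprints of the same 3 genes were fewer in the treated library. Ybx1 had 74 treated and 420 untreated footprints, or 45.0 (35.3 to 56.5) and 123 (112 to 136) scaled CPM, a 2.74-fold lower level (2.14 to 3.56). Zfp106 had 64 treated and 316 untreated footprints, or 38.9 (30.0 to 49.7) and 92.8 (82.8 to 104) scaled CPM, a 2.39-fold lower level (1.82 to 3.17). In both genes the treated interval lay below the untreated one. Ccng1 had 55 treated and 268 untreated footprints, or 33.4 (25.2 to 43.5) and 78.7 (69.5 to 88.7) scaled CPM, a 2.35-fold lower level (1.76 to 3.21). All 3 were called lower, as were 26.2% of 999 genes, while 19.9% were called higher. They stood less far out than in mRNA, at places 59, 88 and 93 from the lowest footprint ratio for Ybx1, Zfp106 and Ccng1.

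**Figure D1:**
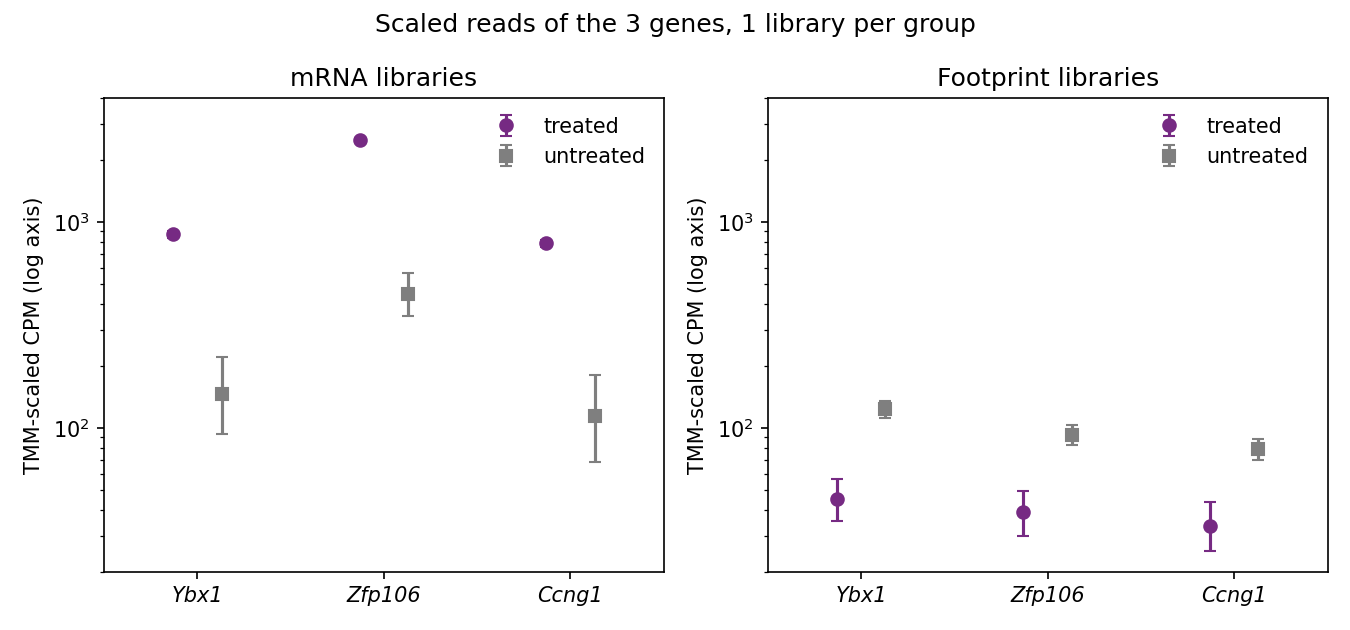
TMM-scaled CPM on a log axis for Ybx1, Zfp106 and Ccng1 in the mRNA libraries (left) and the footprint libraries (right), with treated muscle as circles left of untreated muscle as squares, 1 library per group, and exact 95% counting intervals as bars. In mRNA every treated point lies above its untreated partner, and in footprints every treated point lies below it.

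Footprints per mRNA, the ratio of the footprint ratio to the mRNA ratio, were therefore lower in treated muscle for all 3. The value was 15.8-fold lower (9.85 to 25.5) for Ybx1, 15.6-fold lower (9.10 to 26.8) for Ccng1 and 13.2-fold lower (9.26 to 18.9) for Zfp106, with 0.5 added to each count and a 95% normal interval on the log scale. All 3 were called lower, as were 31.9% of 995 genes, and 26.0% were called higher. The median gene had a log2 ratio of −0.11, against −3.98 for Ybx1, −3.97 for Ccng1 and −3.72 for Zfp106. With the listed totals as scaling the split over all genes turned to 157 lower and 444 higher, against 317 lower and 259 higher with TMM. The 3 genes, picked for low ratios, were still called lower.

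The 3 genes could not be told apart in this ratio. The value of Ybx1 was 0.835 times (0.461 to 1.51) that of Zfp106 and 0.987 times (0.481 to 2.03) that of Ccng1, and the value of Zfp106 was 1.18 times (0.619 to 2.26) that of Ccng1. Intervals this wide leave room for differences of up to about 2.26-fold, so they do not show that the genes moved alike. On the log2 scale the mRNA difference made up 63.8% of the gap between the 2 ratios for Ybx1, 66.5% for Zfp106 and 69.2% for Ccng1. With the library constants behind the authors' normalized counts these parts were 49.4%, 51.3% and 55.8%.

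Genes with both mRNA called higher and footprints called lower numbered 58 of 995, or 5.83%, and included the 3. Both calls rest on the values that chose the members, so nothing is read from this. Ribosomal protein genes, a class chosen after the values were seen, made up 20 of the 58, or 34.5%, against 66 of all 995, or 6.63%. The reverse pair of calls, mRNA lower and footprints higher, was found for 14 genes, of which 0 encode ribosomal proteins. With the listed totals or the authors' constants 19 genes had mRNA higher and footprints lower, and with the other scalings 34 to 57.

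**Figure D2:**
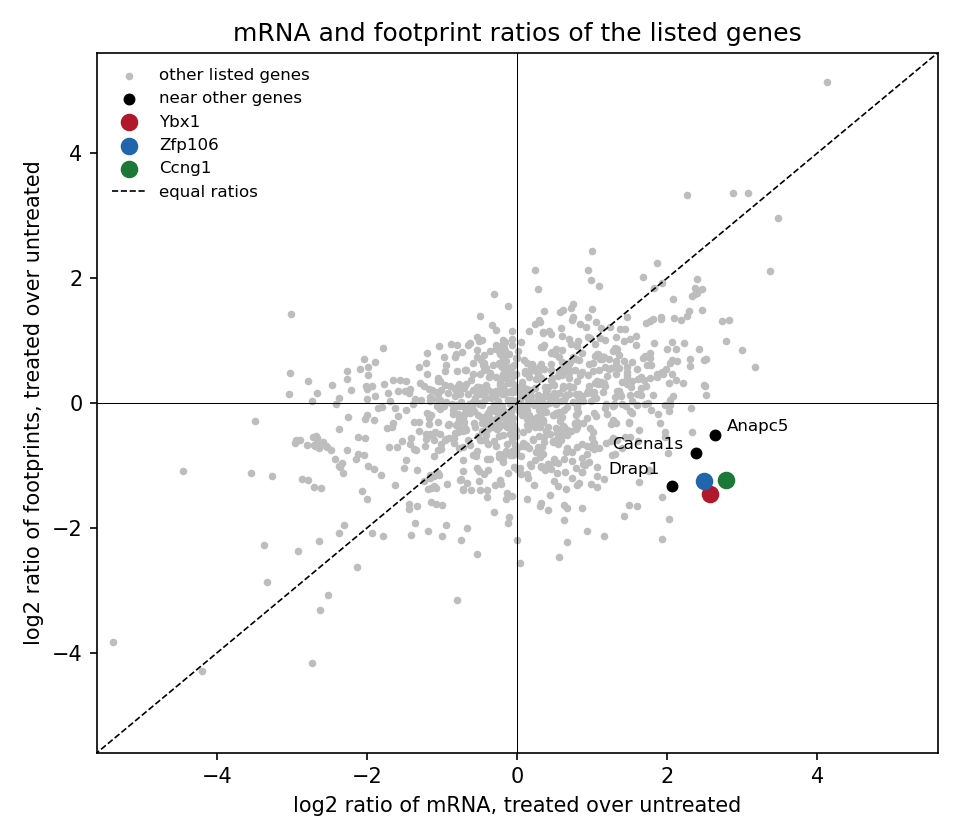
Log2 ratio of mRNA (horizontal) against log2 ratio of footprints (vertical), treated over untreated with TMM scaling, for the listed genes with at least 50 reads in each pair, with the 3 genes in colour and 3 of the nearest other genes in black. Ybx1, Zfp106 and Ccng1 lie together at the lower right, at log2 mRNA ratios of 2.49 to 2.78 and log2 footprint ratios of −1.46 to −1.23.

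Levels within each group separated Zfp106 from the other 2 genes. In treated muscle there were 0.0156 (0.0122 to 0.0200) scaled footprints per scaled mRNA read for Zfp106, the lowest of the 1000 listed genes. Ccng1 had 0.0427 (0.0327 to 0.0557), the third lowest, and Ybx1 0.0520 (0.0413 to 0.0654), at place 6. In untreated muscle Zfp106 had 0.207 (0.160 to 0.267), already at place 30 from the lowest, whereas Ccng1 had 0.668 (0.417 to 1.07) at place 260 and Ybx1 0.823 (0.543 to 1.25) at place 375. Places do not depend on library scaling. Zfp106 was thus a gene of low footprints per mRNA in both muscles, and it too was lower with the vector. Relative to the median gene, Ybx1, Ccng1 and Zfp106 lay at −4.25, −4.54 and −5.99 on the log2 scale with the vector. Without the vector they lay at −0.28, −0.58 and −2.28. These levels make up the ratio that chose the members, so they are a description.

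The order of the 3 was the same in each muscle, Zfp106 lowest, then Ccng1, then Ybx1. Ybx1 had 3.33 times (2.38 to 4.65) the level of Zfp106 in treated muscle and 3.99 times (2.44 to 6.50) in untreated muscle. Ybx1 and Ccng1, neighbours in that order, did not differ beyond counting error, at 1.22 times (0.857 to 1.73) in treated and 1.23 times (0.658 to 2.31) in untreated muscle. The share of each transcript that lies outside the coding part also enters such a level, since it yields mRNA reads but few footprints, and it was not measured here.

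**Figure D3:**
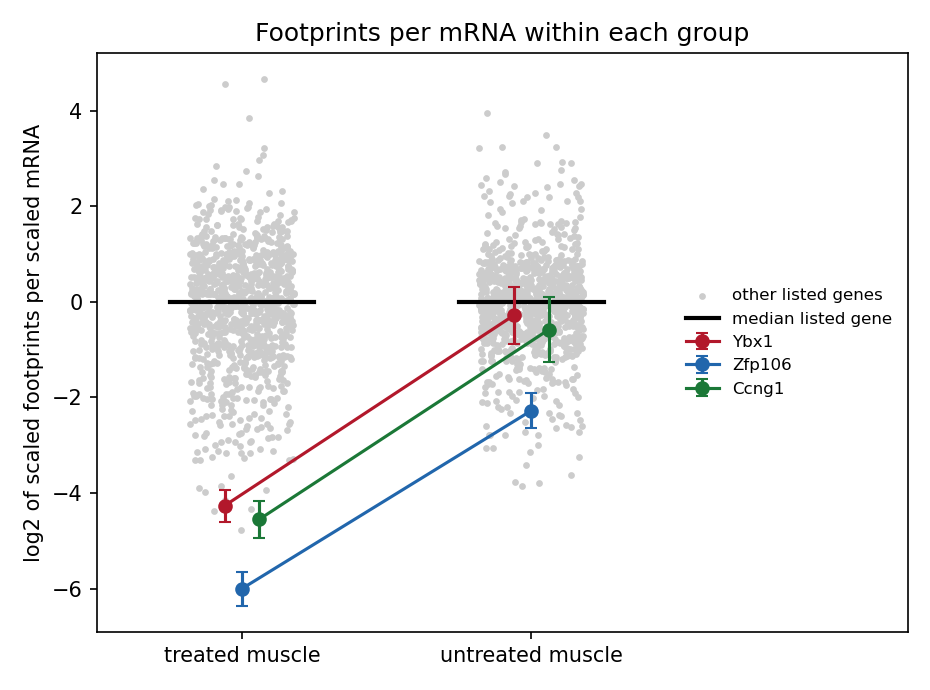
Log2 of TMM-scaled footprints per TMM-scaled mRNA read in treated muscle (left) and untreated muscle (right), with the other listed genes as grey points spread sideways for view, black bars at the median gene, and Ybx1, Ccng1 and Zfp106 in colour with 95% counting intervals. In treated muscle all 3 genes lie at the lower edge, and in untreated muscle Ybx1 and Ccng1 lie near the median while Zfp106 lies below it, at −2.28.

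The members were not the only genes at this end. Ranked by the value itself, Sh3glb1, which encodes an endophilin of autophagy and mitochondrial membranes, came first at 16.8-fold lower (10.3 to 27.2). Rplp0, which encodes a ribosomal stalk protein, stood between Ccng1 and Zfp106 at 14.4-fold lower (9.38 to 22.2). The rule set no threshold, and Drap1, a gene of transcription control, lay further in at 10.2-fold lower (5.98 to 17.4). Ranked by the bound of the interval nearest to no difference, the 6 lowest genes were Sh3glb1, Ybx1, Rplp0, Zfp106, Ccng1 and Gnas, the gene of the stimulatory G protein alpha subunit, at 9.32-fold lower (7.41 to 11.7).

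Likeness of pattern was measured as the straight-line distance in the log2 mRNA and log2 footprint ratios. The distance uses the values that chose the members, so it is a description. It was 0.22 between Ybx1 and Zfp106, 0.29 between Zfp106 and Ccng1 and 0.31 between Ybx1 and Ccng1. The standard error of the log2 footprints per mRNA ratio from counting alone was 0.35, 0.26 and 0.40 for Ybx1, Zfp106 and Ccng1. That is not the error of a distance, which was not worked out. Drap1, which encodes a partner of a general transcription repressor, was the nearest other gene to Ybx1 at 0.52 and to Zfp106 at 0.43. It had 1442 treated and 16 untreated mRNA reads and 92 treated and 481 untreated footprints. Cacna1s, which encodes the calcium channel subunit that senses membrane voltage in the fibre, was nearest to Ccng1 at 0.59 and among the 3 nearest to both others. It had the deepest counts of these neighbours, with 8760 treated and 78 untreated mRNA reads and 640 treated and 2319 untreated footprints, and its footprints per mRNA were 9.06-fold lower (7.13 to 11.5). Anapc5, a subunit of the anaphase-promoting complex, was among the 3 nearest to Ccng1.

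The only listed paralog of a member is Csda (NM_139117, current symbol Ybx3), a Y-box protein gene with the same kind of cold-shock domain as Ybx1. Its mRNA had 2381 treated and 22 untreated reads and was 5.02-fold higher (3.31 to 8.03), close to the ratio of Ybx1. Its footprints, 203 treated and 583 untreated, were 1.39-fold lower (1.18 to 1.64), under the fold threshold, and this interval did not overlap that of Ybx1. Its footprints per mRNA were called lower, at 6.80-fold (4.36 to 10.6). With the upper quartile or the authors' constants as scaling its footprints were called lower too. RefSeq names 1 pseudogene after Ybx1, and the sources used here do not say how reads that fit several places were counted, so the level of Ybx1 is uncertain to that extent.

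Among 17 listed genes of Y-box and other mRNA-coating proteins, Ybx1 and Csda included, footprints per mRNA were called lower for 7 and higher for 3. Over all genes 31.9% were called lower and 26.0% higher. The median log2 ratio of the list was 0.28 and that of all genes −0.11. Ybx1 was picked for a low ratio, so its call adds nothing to the 7. Without Ybx1 the median log2 ratio of the list was 0.35. The other 5 lower genes were Pabpc1 and Pabpc4, which encode poly(A)-binding proteins, at 2.22-fold (1.28 to 3.83) and 3.38-fold (2.09 to 5.44) lower, Pcbp2, Caprin1 and Fxr1. Pcbp2, a poly(C)-binding protein gene, was 3.69-fold lower (2.22 to 6.15) and Fxr1, which encodes a muscle-rich relative of the fragile X protein, 1.75-fold lower (1.39 to 2.21). Ddx5, an RNA helicase gene and the most read of the list, was higher at 1.83-fold (1.47 to 2.29), and so were Pcbp1 and Hnrnpa2b1, at 1.71-fold (1.13 to 2.59) and 3.83-fold (3.0 to 4.89). With the listed totals or the authors' constants the split was 4 lower and 9 higher. Fxr1 kept its call with DESeq2 size factors and lost it with the other 4 scalings. In mRNA 8 of the 17 were called higher and 3 lower with TMM, against 31.8% higher and 24.8% lower over all genes, but 3 higher and 6 lower with the listed totals.

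Few of the other genes of these pathways are listed. Of 27 p53 target and growth arrest genes Ccng1 alone is in the table, and of 30 cyclins and PP2A subunits Ccng1 and Ppp2r1a, the PP2A scaffold, whose footprints per mRNA ratio of 1.16 (0.723 to 1.88) was called neither way with TMM. Zinc finger genes were picked by symbols that start with Zfp, Zc3h, Zfand, Zfhx, Zmiz, Zmym, Zcch or Zbtb, so others may be listed. Of the 3 found, Zfp106 was called lower and Zc3h11a higher, at 1.76-fold (1.01 to 3.06), while Zfp277 had a ratio of 0.769 (0.440 to 1.34). Translation factors were taken as the 21 listed genes whose symbols start with Eif or Eef, so others may be listed. Of these, 8 were called lower and 2 higher, against 31.9% lower and 26.0% higher over all genes. With the listed totals 3 were lower and 5 higher. The median log2 ratio of the list was −0.55 with TMM and 0.07 with the listed totals, where that of all genes was −0.11 and 0.50. Relative to all genes the list lay at −0.44. A scaling moves both medians alike and cannot change this gap, so an unchanged gap says nothing of stability. Eef2, the translocation factor of elongation, was 5.31-fold lower (4.43 to 6.36), whereas Eef1a1 and Eef1a2, which deliver aminoacyl-tRNA, had ratios of 0.953 (0.844 to 1.08) and 0.684 (0.597 to 0.785) and were called neither way.

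Of the counting variance of log footprints per mRNA, the untreated mRNA count gave 72.5% for Ybx1 and 71.0% for Ccng1. For Zfp106, with more untreated mRNA reads, it gave 43.0%, and the 64 treated footprints gave 47.0%. Zfp106 had the narrowest interval of the 3. Among genes with 14 to 19 untreated mRNA reads, the range that holds Ccng1, footprints per mRNA were called lower for 32.4% of 312. For 20 to 59 reads, the range of Ybx1, the share was 33.5% of 487, and for 60 or more reads, the range of Zfp106, 27.0% of 196. The ratio of each gene stayed below 1, with its whole interval, under all 6 scalings. A scaling moves the ratios of all genes by a common factor, and the members were picked for low ratios, so this says nothing of stability.

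**Figure D4:**
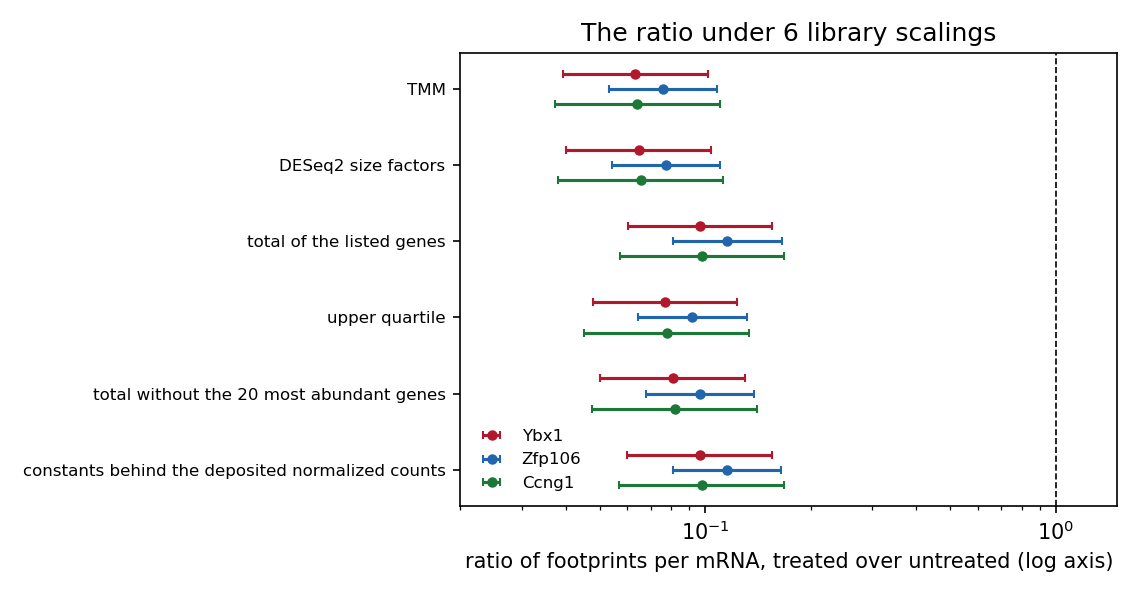
Ratio of footprints per mRNA, treated over untreated, on a log axis for Ybx1, Zfp106 and Ccng1 under 6 library scalings (rows), with 95% counting intervals as bars and a dashed line at no difference. Every interval lies left of the line, and the values are lowest with TMM and highest with the listed totals or the authors' constants. Each scaling moves all genes by a common factor, so the rows are not separate checks.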

How the data were processed

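The authors deposited 1 table of 1000 genes, in falling order of untreated mRNA reads. Per the file headers it gives raw read counts and normalized read counts, which equal the count times 1 constant per library within 0.1 in at least 99.4% of genes of each library and were read as CPM, a scale inferred from the values. The submitters' processing notes list Trimmomatic, STAR, edgeR and mm9, and the sources used here give no counting tool or strand setting. Per the labels' protocols, a stranded total RNA kit was used for mRNA and a small RNA kit for footprints.

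Counts were scaled with TMM (edgeR 4.0.16, R 4.3.3). Ratios of mRNA and of footprints have exact conditional binomial 95% intervals, and ratios of both have normal intervals on the log scale with 0.5 added. Calculations used Python 3.11.15 and scipy 1.17.1 and were tested on simulated data. Alternatives were DESeq2 1.42.0 size factors, 4 other scalings, other read minimums, a 2-fold threshold and 1 or 5 added to counts. No value of a replicate spread exists.

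The members and gene lists were chosen with earlier results of these data known. Named genes were the members, the 3 nearest genes to each, the 6 lowest by interval bound, the 3 most read genes of each list and listed paralogs. Genes named beyond these (Hnrnpa2b1, Pcbp1, Pcbp2, Pabpc1, Pabpc4, Caprin1) were added after their values were seen. Some results that this rule or the lists call for are not reported here.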

Additional observations from a re-analysis of the deposited data

How the results depend on the processing

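No paired analysis was possible because each group has 1 library, and none was left out. Read minimums and the fold threshold cannot move a ratio of the 3 genes, and scaling cannot move a level relative to the median gene, so those alternatives say nothing of stability there. Footprints per mRNA stayed called lower for the 3 genes under all 10 alternatives, at 10.3- to 15.8-fold for Ybx1, 10.2- to 15.6-fold for Ccng1 and 8.64- to 13.2-fold for Zfp106. Footprints stayed called lower and mRNA called higher in 8 of 8 alternatives each. The members were picked through these values, so kept calls say nothing of stability.

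With the listed totals the ratio of footprints per mRNA of Zfp106 was 0.116, and the mRNA ratios of Ybx1 and Zfp106 were 3.77 and 3.57. Over all genes 444 were then higher and 157 lower in footprints per mRNA, and 148 higher and 464 lower in mRNA. With the authors' constants the footprints per mRNA ratio of Zfp106 was also 0.116, and the mRNA ratios of Ybx1, Zfp106 and Ccng1 were 3.22, 3.05 and 3.73. There 444 genes were higher and 158 lower in footprints per mRNA, 110 higher and 543 lower in mRNA, and 114 higher in footprints. With the upper quartile the mRNA ratio of Zfp106 was 4.26, and 205 genes were higher in mRNA. These shifts follow from the scaling itself, which moves all genes of a comparison together: the median log2 mRNA ratio was 0.06 with TMM, −0.60 with the listed totals and −0.82 with the authors' constants. A minimum of 200 reads left 160 genes lower in mRNA because fewer genes were compared, and a 2-fold threshold left 81 higher and 143 lower in footprints.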
